A study of Mus musculus with 6 samples.

Results

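Cell cycle and DNA replication genes were examined in mouse peritoneal macrophages, as a group of 35 genes chosen by name: regulators of the G1 phase (Ccnd1, Ccnd2, Cdk4 and Cdk6), genes of the G1/S transition (Ccne1, Ccne2 and E2f1), 10 replication genes and 18 genes of mitosis and general proliferation. Of the 35, 34 were matched to one of the 25206 gene-level array features through the platform annotation. Ccnb1 was not matched and is not analysed here, so 17 mitosis genes entered. The cells were macrophages drawn into the peritoneal cavity by thioglycollate broth, injected 4 days earlier, from Tet2-/- mice or wildtype littermates (strain C57BL/6J), with 3 biological replicates of each. The number of mice behind a replicate is not stated. Before RNA was taken, all 6 cultures were given 10 ng/ml lipopolysaccharide (LPS) and 2 ng/ml interferon gamma (IFNg) for 10 hours, so both groups share the stimulus and no unstimulated culture entered. The same broth (1 mL of 4% Brewer's thioglycollate) and 10% serum are listed for all 6. Tet2 encodes an enzyme that oxidises 5-methylcytosine in DNA. Neither the age of the mice nor the way Tet2 was inactivated is stated in the labels.

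A dividing cell enters the cycle when D-type cyclins bind the kinases Cdk4 and Cdk6 and release E2F factors from the retinoblastoma protein. E2F factors then switch on cyclin E and the replication genes, and in a later wave the mitosis genes are switched on. Macrophages elicited by broth are largely post-mitotic, whereas resident macrophages of the cavity can divide in place, and LPS and IFNg are both known to halt macrophage proliferation. Replication genes such as Pcna also serve DNA repair, so their transcripts are not a measure of division on their own.

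The 6 arrays resembled each other: Pearson correlations over all features were 0.983 to 0.987 between the groups and at least 0.988 within them. The Tet2 feature, which should check the labels, had log2 levels of 5.40, 5.07 and 5.10 in the wild-type arrays and 5.55, 5.25 and 5.75 in the arrays labelled Tet2-deficient (log2 change 0.32 ± 0.16, limma adjusted p = 0.365). It was not lower in the labelled group, and where its probes lie relative to the altered part of the gene is not given. The Tet2 feature thus checks nothing, and every direction here rests on the sample labels. Of 7 general macrophage markers 2 passed the threshold, an adjusted p of 0.05, both higher in the Tet2-deficient arrays, and of 9 markers of resident peritoneal macrophages 2 passed, both higher, where 0.647% of all features were higher. None passed among 5 monocyte, 10 neutrophil, 7 B cell, 7 T or NK cell, 7 mast cell, 9 mesothelium or fibroblast and 2 erythroid markers. The macrophage markers had array means of 9.76 to 9.82 in the wild-type and 10.0 to 10.2 in the Tet2-deficient group on the log2 scale. They did not move together. Cd14 and Itgam, the 2 that passed, had log2 changes of 0.97 each, Csf1r 0.58 and Adgre1 0.15. Cd68 had 0.00, Mertk -0.10 and Fcgr1 -0.51.

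None of the 34 cell cycle genes differed between the genotypes at the threshold. With limma over all features and Benjamini-Hochberg adjustment, 0 of 34 were higher and 0 lower at an adjusted p of 0.05, where 0.952% of all features passed (0.647% higher and 0.305% lower in the Tet2-deficient arrays). The smallest adjusted p among them was 0.108. At an unadjusted p of 0.05, 3 were higher (Cdk6, Ccnd2 and Tyms) and 2 lower (Tpx2 and Bub1b), that is 5 of 34 against 16.0% of all features. At an adjusted p of 0.25, 2 were higher and 2 lower, against 5.95% and 6.05% of all features. The groups did not overlap for 5 of the 34 (22.0% of all features), with 3 higher (9.74%) and 2 lower (12.2%) in the Tet2-deficient arrays. All these shares lie near the background and are no result about the cell cycle genes.

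The limits on the size of a difference were narrow for most of these genes, as they were for most features. Log2 changes, Tet2-deficient minus wild-type, ran from -0.49 to 0.64, with a median absolute change of 0.11 beside 0.15 over all features. The 95% interval of the limma fit lay within -1 and 1, that is within a 2-fold difference either way, for 33 of the 34 genes, the exception being Ccnd2. It lay within -0.5 and 0.5 for 23 of them. Of all 25206 features, 24237 had an interval within -1 and 1 and 13380 within -0.5 and 0.5. The narrow limits are thus not particular to the cell cycle genes. The median half-width over the 34 genes was 0.32, a 1.25-fold difference. As each array held RNA of a whole culture, fewer cells in cycle and less transcript per cell cannot be told apart. In addition, 9 of the 34 features lay below the median of all features on every array (8 mitosis genes and Ccne2), a range in which array values understate differences.

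**Figure D1:**
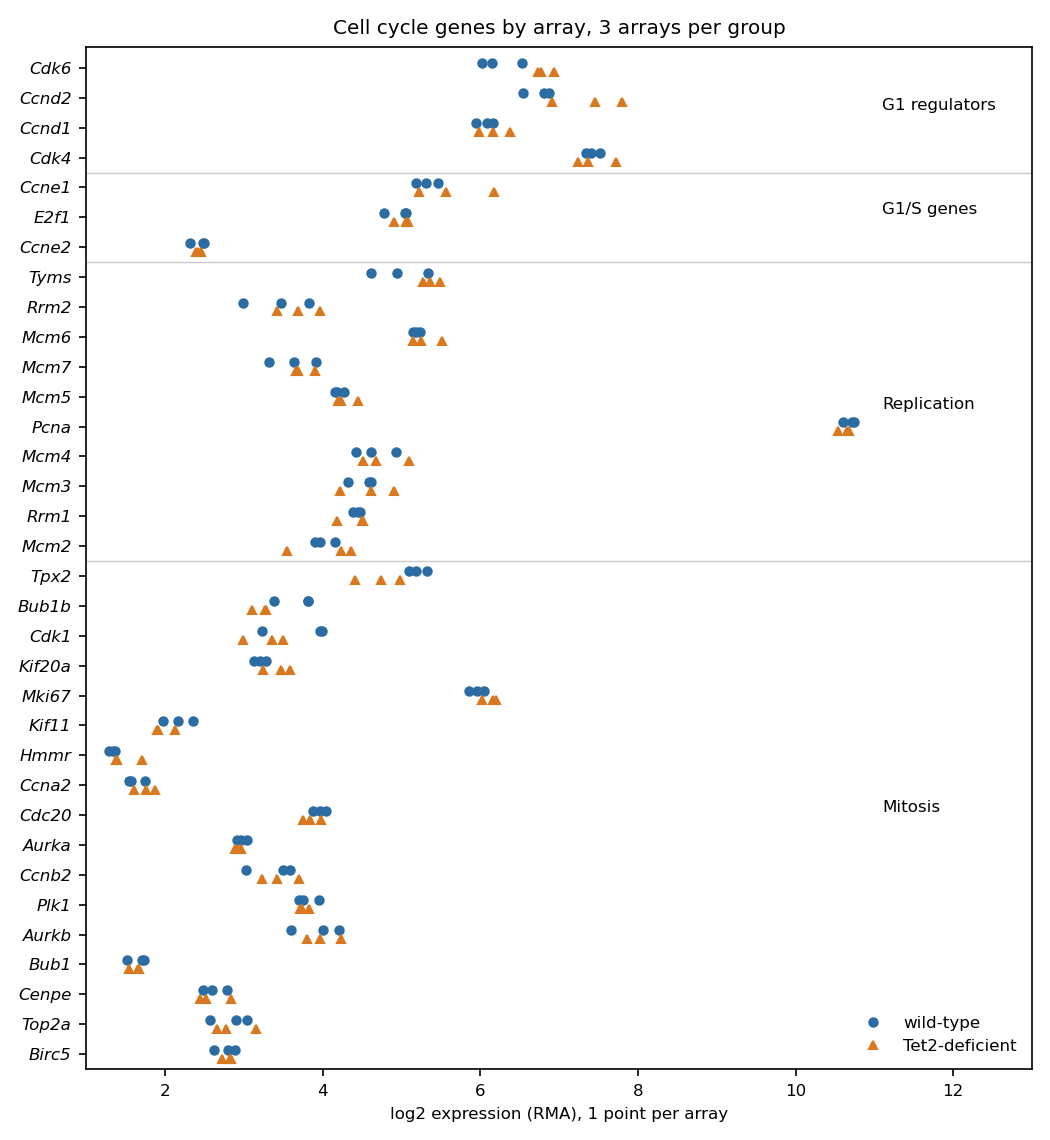
Log2 expression (horizontal axis) of the 34 cell cycle genes, with 1 point per array for 3 wild-type (circles) and 3 Tet2-deficient arrays (triangles), grouped by role. The groups do not overlap for Cdk6, Ccnd2, Hmmr, Tpx2 and Bub1b and overlap for the other genes.

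The regulators of G1 had the largest differences towards higher values in Tet2-deficient cultures. Cdk6, a kinase partner of the D-type cyclins, had log2 levels of 6.53, 6.02 and 6.15 in the wild-type and 6.77, 6.74 and 6.94 in the Tet2-deficient arrays. All 3 Tet2-deficient values lay above all 3 wild-type values. The log2 change of Cdk6 was 0.58 ± 0.15, a 1.49-fold difference, with a limma adjusted p = 0.108. Over 12 other fits its adjusted p ran from 0.0506 to 0.311 and its log2 change stayed positive. Some of these fits alter only the estimate of error or the features included, so the log2 change could not move there. Ccnd2, the cyclin D2 gene, stood at 6.88, 6.54 and 6.80 in the wild-type and 7.79, 6.90 and 7.46 in the Tet2-deficient arrays. The groups were apart by a narrow margin only, and Tet2-deficient replicate 1 was the highest array. The log2 change of Ccnd2 was 0.64 ± 0.21 (limma adjusted p = 0.180), with a 95% interval of 0.17 to 1.12. The other pair of G1 regulators showed no such gap. Cyclin D1, Ccnd1, had group means of 6.06 ± 0.11 and 6.18 ± 0.20 (SD, n = 3 each, log2 level), and Cdk4 had 7.42 ± 0.09 and 7.45 ± 0.25, with overlapping groups in both cases. As deposited, all 4 log2 changes of this set were above 0, and 3 of 4 after cyclic loess between arrays.

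Genes of the G1/S transition overlapped between the groups. Ccne1, which encodes cyclin E1, the activator of Cdk2, had log2 levels of 5.31, 5.47 and 5.19 in the wild-type and 6.18, 5.56 and 5.22 in the Tet2-deficient arrays. The high value belonged to Tet2-deficient replicate 1 alone, and the SD of that group, 0.48, exceeded the log2 change of 0.33 ± 0.22 (limma adjusted p = 0.517). E2f1, the transcription factor that drives replication genes, had group means of 4.96 ± 0.16 and 5.01 ± 0.09, and Ccne2, the cyclin E2 gene, had 2.43 ± 0.10 and 2.43 ± 0.03 (SD, n = 3, log2 level). For these 2 genes the 95% intervals of the difference were -0.23 to 0.34 and -0.27 to 0.25.

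The helicase that unwinds DNA at replication forks is built from the products of Mcm2, Mcm3, Mcm4, Mcm5, Mcm6 and Mcm7. Its 6 genes had log2 changes of 0.03 to 0.13, all smaller than their standard errors, and overlapping groups throughout. Mcm6, the subunit with the least spread in the wild-type arrays, had log2 levels of 5.18, 5.15 and 5.24 there and 5.51, 5.24 and 5.15 in the Tet2-deficient arrays. Mcm2 spread most in the Tet2-deficient group, at 3.96, 4.16 and 3.91 against 4.23, 4.36 and 3.54. In Mcm2 the Tet2-deficient values lay on both sides of the wild-type ones. The smallest adjusted p of the 6 was 0.732.

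The genes of nucleotide supply and of the replication clamp differed little more. Tyms, thymidylate synthase, which makes the thymidine nucleotide, had log2 levels of 4.94, 5.34 and 4.62 in the wild-type and 5.49, 5.37 and 5.28 in the Tet2-deficient arrays. Wild-type replicate 2 reached into the Tet2-deficient range. Its log2 change of 0.41 ± 0.18 was close to the SD of the wild-type arrays, 0.36, and did not pass (limma adjusted p = 0.304). Rrm2, the regulated subunit of ribonucleotide reductase, had 2.99, 3.82 and 3.47 against 3.96, 3.69 and 3.42. Its groups overlapped over most of their range (log2 change 0.27 ± 0.22, limma adjusted p = 0.610). Rrm1, the large subunit of the same enzyme, had group means of 4.44 ± 0.05 and 4.40 ± 0.18 (SD, n = 3, log2 level). Pcna, the sliding clamp of DNA polymerases, had 10.61, 10.75 and 10.71 in the wild-type and 10.53, 10.65 and 10.67 in the Tet2-deficient arrays. These values intermingled, and the 95% interval of the Pcna difference was -0.33 to 0.19.

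Among the mitosis genes the 3 largest differences pointed to lower values in Tet2-deficient cultures. Tpx2, which targets the kinase Aurora A to the spindle, had log2 levels of 5.18, 5.10 and 5.32 in the wild-type and 4.75, 4.42 and 4.98 in the Tet2-deficient arrays. The groups did not overlap, and the log2 change was -0.49 ± 0.16 (limma adjusted p = 0.178). Bub1b, a kinase-like protein of the spindle checkpoint, had 3.38, 3.81 and 3.81 against 3.28, 3.27 and 3.10. Its groups did not overlap either, though wild-type replicate 1 lay close above the highest Tet2-deficient array. The log2 change of Bub1b was -0.45 ± 0.15 (limma adjusted p = 0.179). Cdk1, the kinase that starts mitosis, had 3.24, 3.99 and 3.97 in the wild-type and 2.99, 3.36 and 3.50 in the Tet2-deficient arrays. Wild-type replicate 1 lay among the Tet2-deficient values, and the log2 change of -0.44 ± 0.22 had a limma adjusted p = 0.363. Over the other fits, 12 for Tpx2 and 11 for Bub1b, both changes stayed negative and the adjusted p ran from 0.0902 to 0.386 and from 0.0945 to 0.413. As for Cdk6, some of these fits could not move the log2 change.

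The cyclins and other kinases of mitosis had smaller differences, and none of them was tested against that of Cdk1. Ccnb2, cyclin B2, had a log2 change of 0.08 ± 0.18, and Ccna2, cyclin A2, had 0.12 ± 0.13. Plk1 (-0.05 ± 0.12), Aurka (-0.05 ± 0.11) and Aurkb (0.06 ± 0.18), kinases of spindle assembly and chromosome segregation, had differences below their standard errors. Tpx2 and Aurka, whose products act as a complex, thus had different values: Aurka stood at 2.96, 3.04 and 2.91 against 2.91, 2.89 and 2.96. The difference between these 2 genes was not tested.

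Checkpoint and motor genes gave differences of either sign. Bub1, the kinase partner of the checkpoint protein encoded by Bub1b, had a log2 change of -0.03 ± 0.12, and Cdc20, the activator of the anaphase-promoting complex on which the checkpoint acts, had -0.11 ± 0.12. Of the kinesin motors, Kif20a had 0.23 ± 0.13, Kif11 -0.19 ± 0.14 and Cenpe -0.02 ± 0.15. Hmmr, a spindle-associated protein also known as a hyaluronan receptor, had 1.28, 1.37 and 1.34 in the wild-type and 1.39, 1.70 and 1.38 in the Tet2-deficient arrays. Its groups did not overlap, but only by a small margin, and all 6 values lay below the array medians (limma adjusted p = 0.601). Birc5, the survivin gene of the chromosomal passenger complex, had group means of 2.78 ± 0.14 and 2.79 ± 0.06 (SD, n = 3, log2 level).

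Of the general markers of proliferation, Mki67, which encodes the Ki-67 antigen, had log2 levels of 6.04, 5.96 and 5.86 in the wild-type and 6.16, 6.02 and 6.20 in the Tet2-deficient arrays. The lowest Tet2-deficient value lay just below the highest wild-type value, and the log2 change was 0.17 ± 0.12 (limma adjusted p = 0.531). Top2a, the topoisomerase that untangles sister chromosomes, had 3.04, 2.90 and 2.57 against 3.15, 2.66 and 2.78. Its arrays intermingled, with a 95% interval of -0.36 to 0.41 for the difference.

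**Figure D2:**
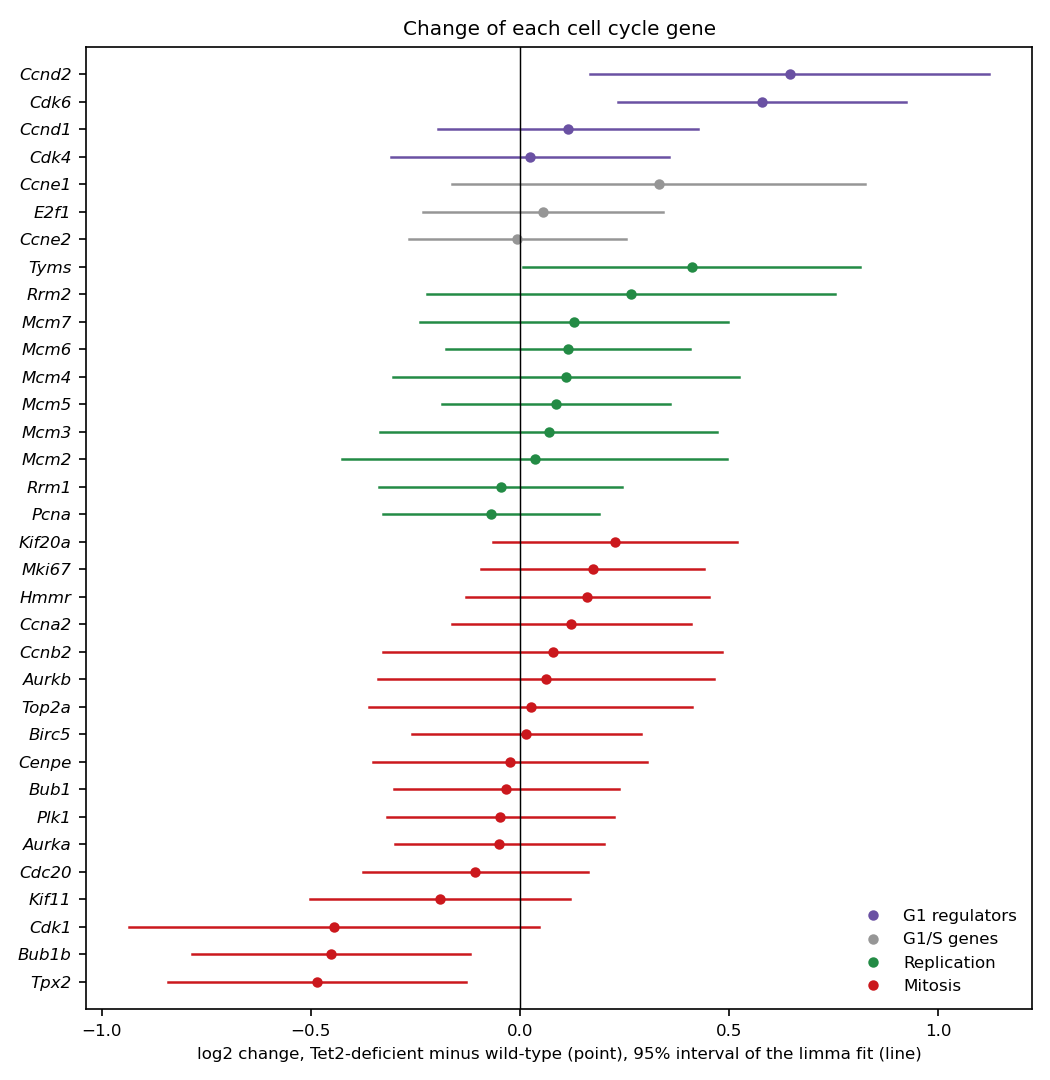
Log2 change of each of the 34 genes (horizontal axis, Tet2-deficient minus wild-type, points) with its 95% interval from the limma fit (lines), coloured by role, n = 3 arrays per group. The intervals of Ccnd2, Cdk6 and Tyms lie above 0 and those of Bub1b and Tpx2 below it, before any adjustment for the number of features tested.

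Replication genes were then compared with mitosis genes. The 10 replication genes had a median log2 change of 0.10, with 8 of 10 above 0, and the 17 mitosis genes a median of -0.02, with 8 of 17 above 0, beside a median of -0.04 and 42.1% above 0 over all features. The sets were unlike in level: 10 of 10 replication but only 5 of 17 mitosis genes lay above the median level of all features. Low array values understate differences, so the sets are not compared on equal terms. The replication median was 0.16 after the arrays were centred on their medians and 0.11 after cyclic loess. The mitosis median was 0.04 under both. Centring shifts every gene alike, and the median over all features moved too, to 0.03 after centring and -0.003 after cyclic loess. To compare the sets array by array, each gene's mean over the 6 arrays was subtracted and the deviations were averaged over each set. The replication average minus the mitosis average was -0.11, -0.01 and -0.12 in the wild-type and 0.28, 0.01 and -0.04 in the Tet2-deficient arrays on the log2 scale. The groups overlapped, since Tet2-deficient replicate 3 lay below wild-type replicate 2, and Tet2-deficient replicate 1 was the highest array. The difference between the groups was 0.17, within the SD of the Tet2-deficient arrays (0.17, and 0.06 in the wild-type arrays, n = 3 each). No test was made of these averages, because the members were chosen with earlier results known.

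That array carried much of the replication difference. Tet2-deficient replicate 1 had the highest value of its group for 8 of 10 replication genes, 3 of 4 G1 regulators and 2 of 3 G1/S genes, but for 5 of 17 mitosis genes. In the further lists described below it was highest for 28 of 50 replication, 12 of 25 E2F and G1 and 21 of 62 mitosis genes. The share over all features was not taken. Replicates 1, 2 and 3 had average replication deviations of 0.23, 0.02 and -0.08 in the Tet2-deficient group, against -0.10, 0.02 and -0.09 in the wild-type group. Without Tet2-deficient replicate 1 the median log2 change of the replication genes was -0.01 and the replication minus mitosis difference 0.07. The same array had the highest value of its group for 6 of 7 B cell markers, whose average deviation was 0.49 there, -0.43 and -0.04 in the other Tet2-deficient arrays and -0.12 to 0.16 in the wild-type arrays. Array means of the B cell markers were 4.00 to 4.28 in the wild-type and 3.69 to 4.61 in the Tet2-deficient group on the log2 scale. Cd79a, part of the B cell receptor, was among them at 4.59 in Tet2-deficient replicate 1. The markers did not rise evenly: Ighm stood at 7.04 there, against 4.27 to 5.96 in the other arrays. Ms4a1, at 3.74 in wild-type replicate 1, stood lower in Tet2-deficient replicate 1, at 3.58. Monocyte markers had an average deviation of 0.49 in that array as well, and -0.29 to 0.10 in the other arrays. These array values have no true zero, and the part of B cell or monocyte transcripts in the replication values was not tested. Between the genotypes the average B cell deviations differed by 0.01 and the average monocyte deviations by 0.19, higher in the Tet2-deficient group.

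The mitosis averages by array were 0.01, 0.03 and 0.04 in the wild-type and -0.05, 0.00 and -0.04 in the Tet2-deficient arrays. Their group difference of -0.06 was no larger than that of the array medians over all features, -0.07. Markers of resident peritoneal macrophages, cells that can divide in place, had a median log2 change of 0.23, and all 9 were above 0 as deposited (8 of 9 after cyclic loess). Their array means were 5.91 to 6.06 in the wild-type and 6.50 to 6.81 in the Tet2-deficient group. Prg4 (log2 change 2.46) and Timd4 (1.19) passed the threshold. Icam2 (0.99, limma adjusted p = 0.0523) and Cxcl13 (0.93, limma adjusted p = 0.0782) came next and did not pass. Smaller changes were those of Gata6 (0.23), Adgre1 (0.15), Selp (0.07), Rarb (0.06) and Cd93 (0.01). All 9 markers were named singly after their values were seen. Their part in the cell cycle values was not tested.

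**Figure D3:**
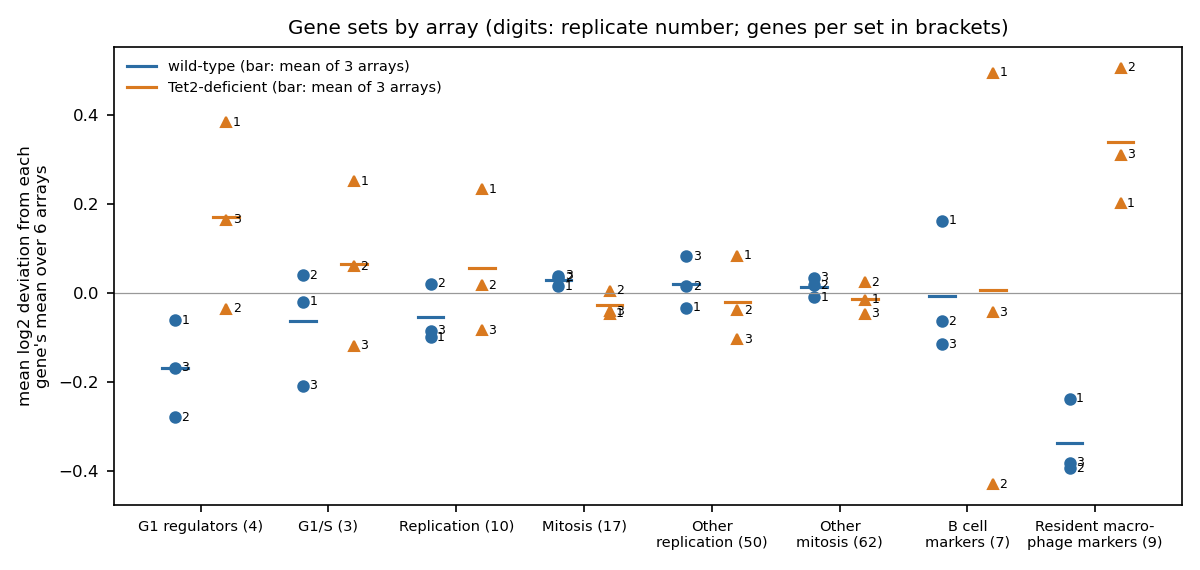
Average log2 deviation of each gene set from its genes' means over 6 arrays (vertical axis), by array, with replicate numbers beside the points and bars at the group means of 3 arrays. Tet2-deficient replicate 1 is the highest array for the G1, G1/S and replication sets and for B cell markers, while the mitosis set stays between -0.05 and 0.04 and resident macrophage markers separate the groups.

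None of the other cell cycle genes listed passed either. Of 148 further cell cycle genes measured, in 4 lists, 0 rose and 0 fell at an adjusted p of 0.05 with limma, and at an unadjusted p of 0.05, 7 were higher (7.63% of all features) and 12 lower (8.37%). The groups did not overlap for 31 of the 148, against 22.0% of all features. Of 50 other replication genes, 4 were higher and 7 lower at the unadjusted threshold, with a median log2 change of -0.09 (-0.02 after centring and -0.05 after cyclic loess). The smallest p values of that list belonged to Gins3, a subunit of the replicative helicase complex (log2 change -0.52 ± 0.12, limma adjusted p = 0.0722), Rnaseh2a, the catalytic subunit of ribonuclease H2 (-0.43 ± 0.11, limma adjusted p = 0.0999), Rfc3, a subunit of the clamp loader (-0.51 ± 0.13, limma adjusted p = 0.104), and Orc3, of the origin recognition complex (0.35 ± 0.12, limma adjusted p = 0.184). Rnaseh2a had the tightest replicates of these, at 6.18, 6.14 and 6.21 in the wild-type and 5.74, 5.78 and 5.72 in the Tet2-deficient arrays. Thus 3 of these 4 genes had lower values in the Tet2-deficient arrays, and 1 higher. As they were picked by p, this count does not describe the list. Over the list 19 of 50 log2 changes were above 0 (38.0%, against 42.1% of all features).

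Among 62 other mitosis genes, 2 were higher (7.63% of all features) and 3 lower (8.37%) at the unadjusted threshold. Their median log2 change was -0.03, and 0.04 after centring and after cyclic loess. Over all features the medians were -0.04 as deposited, 0.03 after centring and -0.003 after cyclic loess. Kif22, a chromosome-arm kinesin (-0.52 ± 0.13, limma adjusted p = 0.102), and Pttg1, the securin gene that holds back sister separation (-0.43 ± 0.12, limma adjusted p = 0.115), had the lowest p values of the list. Pttg1 stood at 6.26, 6.14 and 6.35 against 5.73, 5.88 and 5.84, with no overlap. Bub3, a checkpoint partner of Bub1 and Bub1b, had 0.31 ± 0.11, and the kinesin Kif18b -0.41 ± 0.16, neither past the threshold.

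The brakes of the cycle were measured through 11 CDK inhibitors and Rb family genes, of which 1 was higher (7.63% of all features) and 2 lower (8.37%) at the unadjusted threshold. None passed with adjustment in the limma fit, where 0.952% of all features did. Cdkn1c, the inhibitor p57, had log2 levels of 5.42, 5.68 and 6.08 in the wild-type and 5.10, 4.46 and 5.43 in the Tet2-deficient arrays. Tet2-deficient replicate 3 reached the wild-type range, and the log2 change was -0.73 ± 0.25 (limma adjusted p = 0.195). Cdkn2d, the inhibitor p19 of Cdk4 and Cdk6, had -0.32 ± 0.12, Rb1, the retinoblastoma gene, 0.40 ± 0.16 and Cdkn2a, the locus of p16 and p19Arf, -0.33 ± 0.20. Of 25 further E2F, DP, DREAM complex and G1 genes, 0 passed even the unadjusted threshold. Nearest were Cdk7 (-0.33 ± 0.15), Lin37 (-0.28 ± 0.13), Tfdp2 (-0.31 ± 0.15) and Lin54 (0.27 ± 0.14).

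**Figure D4:**
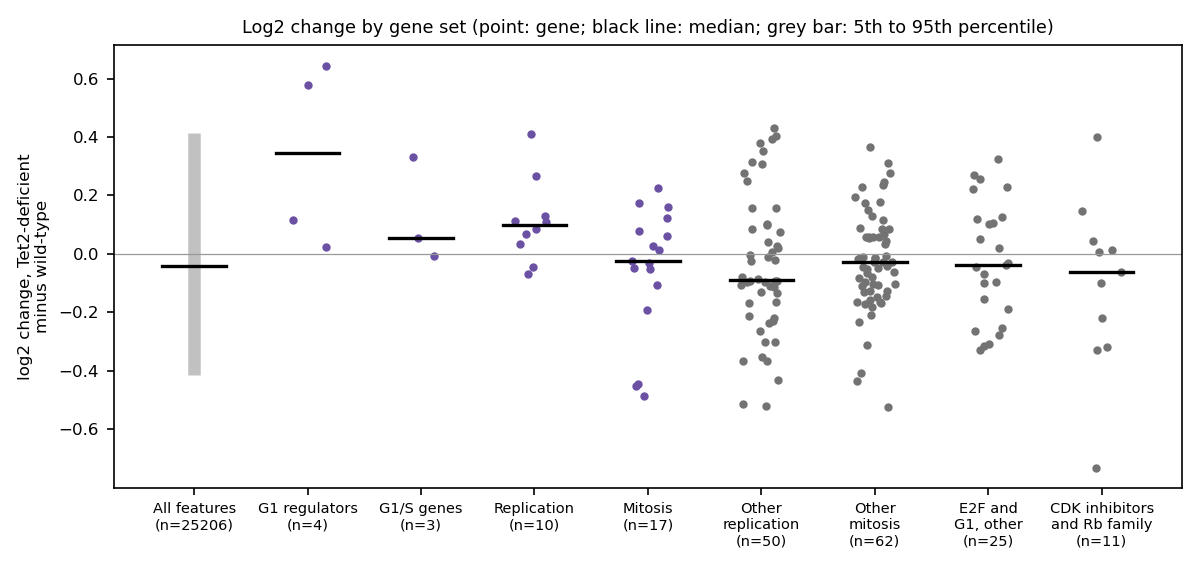
Log2 change, Tet2-deficient minus wild-type (vertical axis), of each gene (points) by set, with the set's median (black line) and, for all features, the 5th to 95th percentile (grey bar). The G1 regulators have the highest median, 0.35, and the other sets have medians between -0.09 and 0.10, beside -0.04 for all features.

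The replication and mitosis genes were also compared by the letters of their promoters. Promoter windows of RefSeq (GRCm38.p6), reaching from 250 bases before to 50 bases after the gene start, were found for 27 of the 35 genes; Ccnd1, Ccnd2, Ccne2, Mcm4, Ccna2, Aurkb, Kif20a and Tpx2 had no entry. They were searched on both strands for the letters CCAAT, bound by the factor NF-Y. The E2F-like letters were TTTGGCG, with its variant TTTCCCG and the further variant TTTCGCG. The letters of the cell cycle homology region (CHR), which the DREAM complex reads, were TTTGAA, with its variant TTTAAA. None of these letters contains another. CCAAT stood in 8 of 9 replication and 13 of 14 mitosis windows, against 37.9% of all 27025 windows. CHR-like letters stood in 13 of 14 mitosis and 3 of 9 replication windows, against 27.8% of all windows. E2F-like letters stood in 4 of 9 replication windows (Mcm3, Mcm5, Mcm6 and Mcm7) and 2 of 14 mitosis windows (Birc5 and Cdk1), against 5.72% of all windows. The mitosis windows include that of Ccnb1, and these counts were not tested. A match is a description of the letters and not a binding site.

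The stretches of 250 bases before the start are shown for the 2 replication and the 2 mitosis genes with the smallest p among those with an entry, to let the promoters be set beside their levels. Capitals mark the letters searched, in either orientation. Positions are chr5:30073626-30073875 (minus strand) for Tyms, chr12:24708004-24708253 (plus strand) for Rrm2, chr2:118597961-118598210 (plus strand) for Bub1b and chr10:69352913-69353162 (minus strand) for Cdk1, all in GRCm38.p6.
Tyms: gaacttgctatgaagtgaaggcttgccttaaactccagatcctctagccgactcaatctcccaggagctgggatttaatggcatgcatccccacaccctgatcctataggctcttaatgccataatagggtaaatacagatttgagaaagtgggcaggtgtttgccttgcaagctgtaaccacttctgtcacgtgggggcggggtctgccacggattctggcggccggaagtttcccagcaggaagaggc
Rrm2: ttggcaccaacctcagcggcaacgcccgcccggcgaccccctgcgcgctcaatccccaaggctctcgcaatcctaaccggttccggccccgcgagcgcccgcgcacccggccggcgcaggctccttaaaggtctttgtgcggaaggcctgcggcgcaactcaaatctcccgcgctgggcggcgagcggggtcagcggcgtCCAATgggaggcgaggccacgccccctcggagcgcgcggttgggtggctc
Bub1b: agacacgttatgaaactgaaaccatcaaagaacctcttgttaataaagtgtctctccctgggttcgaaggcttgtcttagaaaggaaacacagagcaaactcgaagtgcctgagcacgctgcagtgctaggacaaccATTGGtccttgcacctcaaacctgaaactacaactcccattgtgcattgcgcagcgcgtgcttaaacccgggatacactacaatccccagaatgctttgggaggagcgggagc
Cdk1: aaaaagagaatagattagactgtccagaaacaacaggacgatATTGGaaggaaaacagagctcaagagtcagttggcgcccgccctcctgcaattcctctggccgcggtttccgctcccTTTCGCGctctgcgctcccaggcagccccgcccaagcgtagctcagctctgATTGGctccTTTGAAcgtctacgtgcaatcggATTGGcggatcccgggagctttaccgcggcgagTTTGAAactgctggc
The Cdk1 stretch holds 3 CCAAT boxes in the reverse orientation, 1 E2F-like match 131 bases before the start and 2 CHR-like matches, 71 and 15 bases before it. Bub1b holds 1 reversed CCAAT box 113 bases before the start, and its CHR-like letters lie after the start, outside the printed stretch. Rrm2 holds 1 CCAAT box 50 bases before the start and has CHR-like letters at the start itself, also outside the printed stretch, and Tyms holds none of the letters searched. Cdk1 and Bub1b had log2 changes of -0.44 and -0.45, and Tyms and Rrm2 of 0.41 and 0.27, none past the threshold. As these genes were picked by p, their log2 changes do not describe their sets. Over the whole sets, 8 of 17 mitosis and 8 of 10 replication log2 changes were above 0, with medians of -0.02 and 0.10. The other measured mitosis genes with both CCAAT and CHR-like letters had log2 changes of either sign. Those above 0 were Mki67 (0.17), Hmmr (0.16), Ccnb2 (0.08) and Top2a (0.03). Those below 0 were Kif11 (-0.19), Cdc20 (-0.11), Aurka (-0.05), Plk1 (-0.05) and Cenpe (-0.02). A link between letters and log2 changes was not tested.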

How the data were processed

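The values analysed are log2 expression as the authors deposited them, made with RMA and affy 1.36.1, per the submitters' processing notes. RMA includes a normalization between arrays, so a shift of most genes together may be removed. Array medians of the deposited values ran from 3.47 to 3.66. The array type and genome build are not stated in the labels. Symbols came from the platform annotation, which named 23185 of 25206 features.

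Samples were grouped by title. The labels call them biological replicates and do not say whether each is 1 mouse or a pool, so p-values measure only the spread between these samples. Arrays have no depth, and their number limits the precision. In no pair were more than 0.341% of the values identical. A limma 3.58.1 model (lmFit, eBayes, R 4.3.3) compared the groups over all features, two-sided, and p-values were adjusted over all of them by Benjamini-Hochberg, with 0.05 as the threshold. Values after ± are standard errors of this fit unless marked SD. An exact permutation test of 3 against 3 cannot go below 0.1 and was not used. The fit was tested on simulated data.

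The 35 genes were named throughout, with up to 4 genes of smallest p from each of 4 lists of other cell cycle genes. Marker lists numbered 9. Members and lists were chosen with earlier results of these data known. Single marker genes and the histone genes were named after their values were seen. Other settings tried were array centring, cyclic loess, a filter on dim features, a replicate block, another prior, array weights, each array left out, and other thresholds and sets. A planned averaging of features of 1 gene had no effect, as no gene had several.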

Additional observations from a re-analysis of the deposited data

How the results depend on the processing

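With limma, 0 of the 34 genes (0 higher, 0 lower) passed an adjusted p of 0.05 in each of 12 other fits, of which the fit to features above the median level covered 21 of them. At an adjusted p of 0.25, 2 were higher and 2 lower, and at an unadjusted p of 0.05, 3 and 2. The sign of the log2 change stayed the same in all fits for 18 genes and changed for 16, whose absolute change was at most 0.13. The replicate block, the other prior and the filter on dim features could not change a sign, as they keep each log2 change. Over all features 240 passed, against 498 with array weights, 846 above the median level only, 814 with a trended and robust prior, and 11 to 155 with 1 array left out (155, 67 and 25 without wild-type replicates 1, 2 and 3, and 27, 114 and 11 without the Tet2-deficient ones). The mitosis median of -0.02 was 0.0056 with array weights, 0.042 with centred arrays, 0.042 with cyclic loess, -0.047 for the 5 mitosis genes above the median level, and -0.059 (without wild-type replicate 2) to 0.0013 (without Tet2-deficient replicate 3) with 1 array left out. Centring shifts every gene alike, and for the other settings the cause was not tested. The replication minus mitosis difference was 0.07 to 0.23 with 1 array left out and 0.14 to 0.20 under the other settings.

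Same-numbered arrays of the groups deviated together with correlations of 0.084, 0.19 and 0.025 over all features. As not every pair exceeded 0.1, the numbers are not taken to pair the samples, although 4 of 6 arrays correlated best with their own number. With a replicate block, 0 of the 34 genes and 230 of all features passed.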

Other observations

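Core histone genes, whose transcripts are largely made in S phase to package new DNA, were read as a further group after the other values had been seen. They were taken by their symbols alone, so not every one need be an S phase gene. Of 30 measured, 0 passed an adjusted p of 0.05 with limma, and at an unadjusted p of 0.05, 1 was higher (7.63% of all features) and 7 lower (8.37%) in the Tet2-deficient arrays. The groups did not overlap for 6, all lower, where 12.2% of all features were apart in that direction. Of the 30, 13 lay below the median of all features on every array, among them H2ac6 and H2bc1 of these 6. The median log2 change was -0.12, and -0.05 after centring and after cyclic loess. H2bc4, an H2B gene, had log2 levels of 8.29, 8.16 and 8.28 in the wild-type and 7.68, 7.24 and 7.70 in the Tet2-deficient arrays (log2 change -0.70 ± 0.15, limma adjusted p = 0.0607). H2ac22, an H2A gene, had 7.79, 7.35 and 7.42 against 6.89, 7.02 and 6.82 (-0.61 ± 0.15, limma adjusted p = 0.0842). The histone genes are near-identical copies, so probes may read several of them. Single values are therefore uncertain, and the counts may not be of independent genes.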
